A study of Mus musculus with 22 samples.

Results

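The T-box family is a group of transcription factors that share 1 DNA-binding domain, and 10 of its genes were followed here in whole mouse embryos that carried an inducible Oct4 or Nanog transgene. The genes were Eomes, T (brachyury), Tbx1, Tbx2, Tbx3, Tbx4, Tbx5, Tbx6, Tbx18 and Tbx20. They were found by matching the gene IDs of the deposited table to symbols, and they are 10 of 37680 gene IDs in the table and 10 of the 17 T-box genes in the annotation used.

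T-box proteins bind a short DNA element through the T-box domain and activate or repress their targets according to the member and its partners. In the mouse embryo the family is used in succession. Eomes and brachyury act in the primitive streak, Tbx6 in the presomitic mesoderm that leaves it, and the remaining members studied here in the pharynx, heart, allantois, limb buds and somites that form later.

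RNA came from 22 pools of embryos in 8 groups, all of the C57BL/6 strain. The genotype was ROSA26tg/+; Oct4tg/+ in the Oct4 line and ROSA26tg/+; Nanogtg/+ in the Nanog line, from matings with double homozygous males, and the control embryos carried the same transgenes. For E7.5 induction the mothers were injected with doxycycline at E4.5 and drank it afterwards, and for E9.5 induction they drank it from E6.5. Control mothers were given none. The mothers were aged 6 to 7 weeks. The groups were Oct4 E7.5 induced (3 pools) and control (3), Nanog E7.5 induced (3) and control (2), Oct4 E9.5 induced (3) and control (3), and Nanog E9.5 induced (3) and control (2). A pool held 8 to 12 embryos at E7.5 and 3 embryos at E9.5, so each value is a mean over embryos, and no group was given doxycycline without an inducible transgene. The labels do not say which cells the transgenes were active in. In bulk RNA, fewer cells of a type and less RNA per cell cannot be told apart.

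Libraries held 4.72 to 42.3 M counts, and 3 counts, the limit that a count of 0 allows, stood for 0.0789 to 0.586 CPM in a library, where CPM are counts scaled to a common library size. Pou5f1, which encodes Oct4, was at 518 to 684 CPM in the Oct4 E7.5 induced pools, against 229 to 266 CPM in their controls, and at 236 to 258 CPM in the Oct4 E9.5 induced pools, against 0.4 to 1.21 CPM in their controls. Nanog was at 58.9 to 118 CPM in the Nanog E7.5 induced pools, against 17 to 22.6 CPM in their controls, and at 321 to 327 CPM in the Nanog E9.5 induced pools, against 1.97 to 2.28 CPM in their controls. Pou5f1 was also at 460 to 587 CPM in the Nanog E7.5 induced pools, against 220 to 242 CPM in their controls. The E7.5 pools held extraembryonic tissue. Their 8 visceral endoderm and yolk sac markers summed to 1250 to 4970 CPM, against 88.1 to 127 CPM in the E9.5 pools. In each E7.5 group 8 of 8 of these markers exceeded 1 CPM, but so did 6 or 7 in each E9.5 group. The Nanog E7.5 induced libraries stood apart in 2 technical measures. Gene models shorter than 80 nt took 0.575 to 1.13 CPM there, against 31.3 to 36.8 CPM in the controls, and mitochondrial genes took 5.27% to 8.26% of counts, against 3.3% to 3.63%. The other 8 E7.5 libraries held 29 to 51.9 CPM of those gene models and the 11 E9.5 libraries 0.634 to 2.02 CPM. The difference between libraries thus also runs with stage and cannot be told apart from it. Within the Nanog line at E7.5 it runs with induction. There, and in Nanog minus Oct4 at E7.5, it cannot be told apart from the effect of Nanog induction. Without mitochondrial and short gene models no call of the 10 genes in the Nanog E7.5 comparison changed. That fit only drops those rows, so it cannot show whether the counts of the 10 genes carry the library difference. The Nanog E9.5 groups also differed: induced libraries held 4.77, 5.63 and 5.15 M counts and controls 15.8 and 15.7 M. Mitochondrial genes took 2.23% to 2.44% of counts in those induced libraries, against 2.82% to 2.88% in the controls. This difference runs with Nanog induction at E9.5 and cannot be told apart from it, also in Nanog minus Oct4 at E9.5.

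Promoter windows of RefSeq (mouse build GRCm38.p6, 250 bases before to 50 after the gene start) were found for 7 of the 10 genes, in 8 windows. The windows of Eomes and Tbx4, which had the largest increase and the largest decrease at E7.5, and of brachyury and Tbx6, whose responses at E7.5 were called with 1 factor each, are shown with motif matches in capitals. The motifs searched, on both strands, were GGTGTNA, the core T-box element, ATGCAAAT, the octamer bound by Oct factors, and TATAAA.
Eomes: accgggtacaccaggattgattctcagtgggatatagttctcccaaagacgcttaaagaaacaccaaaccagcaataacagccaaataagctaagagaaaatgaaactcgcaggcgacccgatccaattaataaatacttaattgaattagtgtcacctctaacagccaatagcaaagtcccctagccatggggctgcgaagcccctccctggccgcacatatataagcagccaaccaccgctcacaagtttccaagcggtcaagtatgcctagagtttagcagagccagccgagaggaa
brachyury: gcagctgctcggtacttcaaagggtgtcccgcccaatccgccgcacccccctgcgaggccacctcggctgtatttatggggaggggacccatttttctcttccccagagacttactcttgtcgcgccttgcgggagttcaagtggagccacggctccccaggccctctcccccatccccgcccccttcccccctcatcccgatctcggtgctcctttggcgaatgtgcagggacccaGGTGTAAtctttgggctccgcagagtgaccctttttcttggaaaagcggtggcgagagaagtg
Tbx6: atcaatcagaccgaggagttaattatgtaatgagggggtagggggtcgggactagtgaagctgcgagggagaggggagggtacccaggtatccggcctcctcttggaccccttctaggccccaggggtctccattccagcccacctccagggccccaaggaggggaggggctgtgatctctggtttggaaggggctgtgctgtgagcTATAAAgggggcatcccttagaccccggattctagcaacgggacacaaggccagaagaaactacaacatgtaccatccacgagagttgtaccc
Tbx4: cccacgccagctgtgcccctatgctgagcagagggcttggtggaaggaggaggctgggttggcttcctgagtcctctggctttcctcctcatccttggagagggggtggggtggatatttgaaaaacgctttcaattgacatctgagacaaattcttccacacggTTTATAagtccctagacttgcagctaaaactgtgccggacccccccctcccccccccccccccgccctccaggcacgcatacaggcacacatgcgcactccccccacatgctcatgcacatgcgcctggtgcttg
The windows are, in the same order, chr9:118477939-118478238, chr17:8434173-8434472, chr7:126781233-126781532 and chr11:85896515-85896814, all on the plus strand. The capitals mark a T-box element 13 bases upstream of the start of brachyury, a TATAAA 43 bases upstream of Tbx6, and a TATAAA on the opposite strand 85 bases upstream of Tbx4. A T-box element also stood 75 bases upstream in 1 of the Tbx1 windows and 217 bases upstream of Tbx18. The octamer was in none of the 8 windows. Of 32851 RefSeq windows of this length, 10.2% held the T-box element, 13.6% held TATAAA and 1.74% held the octamer. These matches describe the letters only, and no binding was measured.

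The family turned over between the stages in control embryos, with several members of like level at E9.5 and a single dominant member, brachyury, at E7.5. Levels of different genes are compared here per kilobase of exon, in the Oct4 line (mean ± SD, n = 3). At E9.5, 7 genes lay between 3.22 and 5.25 CPM per kb: Tbx3, Tbx2, Tbx1, brachyury (4.35 ± 2.18), Tbx20, Tbx18 and Tbx5. The pools of neighbours in this order overlapped, so their order is not resolved, except for Tbx20 and Tbx18. Those 2 had 3.86 to 4.6 and 3.11 to 3.54 CPM per kb. Tbx4 (1.68 ± 1.44) and Tbx6 (1.59 ± 0.682) had lower means, but their pools overlapped those of other genes. In control 3 Tbx4 had 3.35 CPM per kb, inside the Tbx5 range of 2.77 to 3.48. Tbx6 had 2.28 in control 3, above brachyury in control 1 (2.02), so these orders are not resolved either. At E7.5 brachyury held 87.2 ± 15.2 CPM per kb, Tbx6 17.6 ± 1.96, Tbx3 15.2 ± 1.21 and Eomes 9.65 ± 1.41. Tbx20 (3.86 ± 0.179), Tbx4 (3 ± 0.503), Tbx1 (1.91 ± 0.301) and Tbx2 (1.22 ± 0.0755) followed, and Tbx5 (0.343 ± 0.126) and Tbx18 (0.14 ± 0.0156) were lowest. Of neighbours in the E7.5 order the pools of Tbx6 and Tbx3 overlapped, so their order is not resolved. Brachyury made up 12.6% ± 5.43 of the summed per-kb level of the 10 genes in the E9.5 controls of the Oct4 line and 62% ± 3.72 in its E7.5 controls. In the Nanog line its share was 15.4% ± 3.38 at E9.5 and 59.2% ± 0.293 at E7.5 (n = 2 each).

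**Figure D1:**
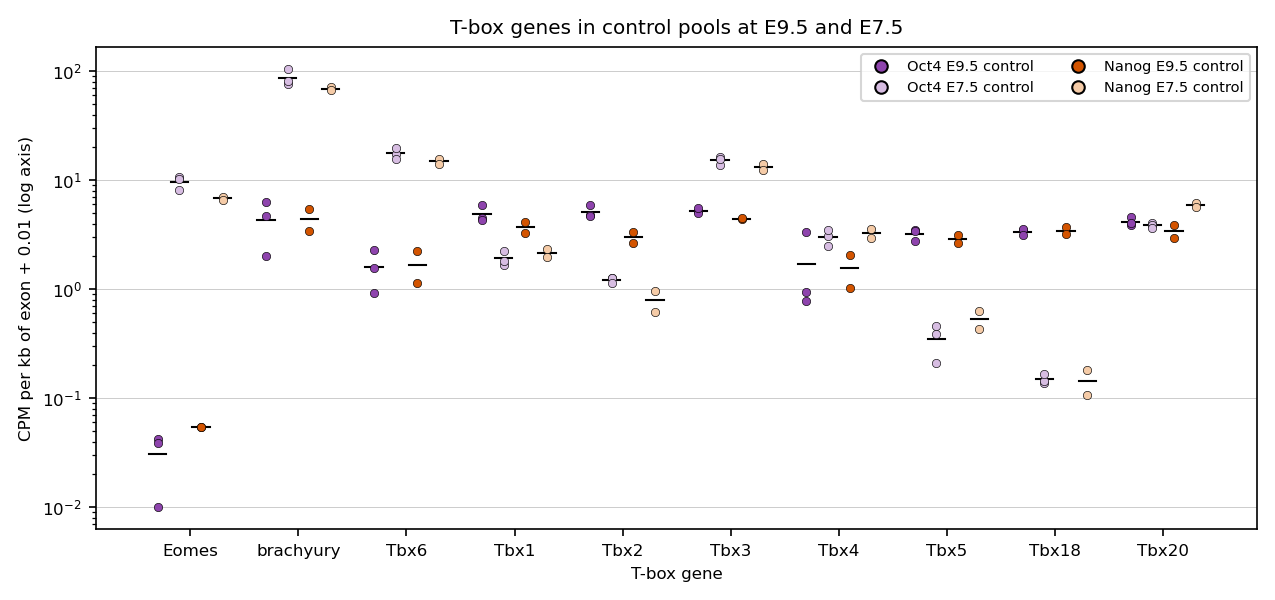
Level per kilobase of exon (CPM per kb plus the small offset given on the axis, log scale) of the 10 T-box genes in control pools, E9.5 left of E7.5 for each gene. Points are pools of both lines and lines are group means; brachyury averaged 4.35 CPM per kb at E9.5 and 87.2 at E7.5 in the Oct4 line, while Tbx18 averaged 3.37 at E9.5 and 0.14 at E7.5.

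Between E9.5 and E7.5 controls, 4 genes were higher and 4 lower in the Oct4 line, and 4 were higher and 6 lower in the Nanog line (edgeR quasi-likelihood test, Benjamini-Hochberg adjusted p under 0.05 over all tested genes, as throughout). Of all genes tested in the Oct4 line 36.5% were higher and 37.1% lower (73.5% in all), and in the Nanog line 31.8% and 32% (63.8%). Most genes of any kind thus passed in both lines. The share of members that passed was 80% in the Oct4 line, near that of all genes, and 100% in the Nanog line, above it. The E9.5 and E7.5 controls did not overlap for 8 members in the Oct4 line and 10 in the Nanog line, against 77.7% and 82.9% of all genes. Tbx18, which acts in the somites and the epicardium, had the steepest increase, at 16.2, 16.6 and 14.5 CPM in the E9.5 controls of the Oct4 line and 0.597, 0.627 and 0.736 CPM in its E7.5 controls (log2 fold change 4.62 ± 0.17 SE). Tbx5, a heart and forelimb factor, differed by 3.30 ± 0.25, Tbx2 by 2.12 ± 0.13 and the pharyngeal gene Tbx1 by 1.43 ± 0.18 in the Oct4 line, and by 2.42 ± 0.25, 1.93 ± 0.25 and 0.76 ± 0.24 in the Nanog line. Brachyury (-4.29 ± 0.37 and -4.00 ± 0.19), Tbx6 (-3.45 ± 0.21 and -3.19 ± 0.25) and Tbx3 (-1.49 ± 0.078 and -1.61 ± 0.085) were lower at E9.5 in the Oct4 and the Nanog line. Eomes had at most 3 counts in each of the 11 E9.5 libraries, 17 counts in all, and at that depth it was not distinguishable from absence. Tbx4 and Tbx20 were lower at E9.5 in the Nanog line (-1.11 ± 0.32, adjusted p = 0.0159, and -0.83 ± 0.14, adjusted p = 2e-04) and did not pass in the Oct4 line (-0.86 ± 0.57, adjusted p = 0.232, and 0.16 ± 0.098, adjusted p = 0.153). Without Oct4 E9.5 control 3 the Tbx4 difference of that line was -1.75 and passed (adjusted p = 7.22e-05), and in the Nanog line it was lost in 2 of 4 fits that leave out a control and in 1 model over all 22 libraries (0.0741). The Tbx1 difference of the Nanog line was lost in DESeq2 (adjusted p = 0.148), without Nanog E7.5 control 3 (0.0942) and without Nanog E9.5 control 3 (0.155). These comparisons use the control pools of the inductions described next.

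**Figure D2:**
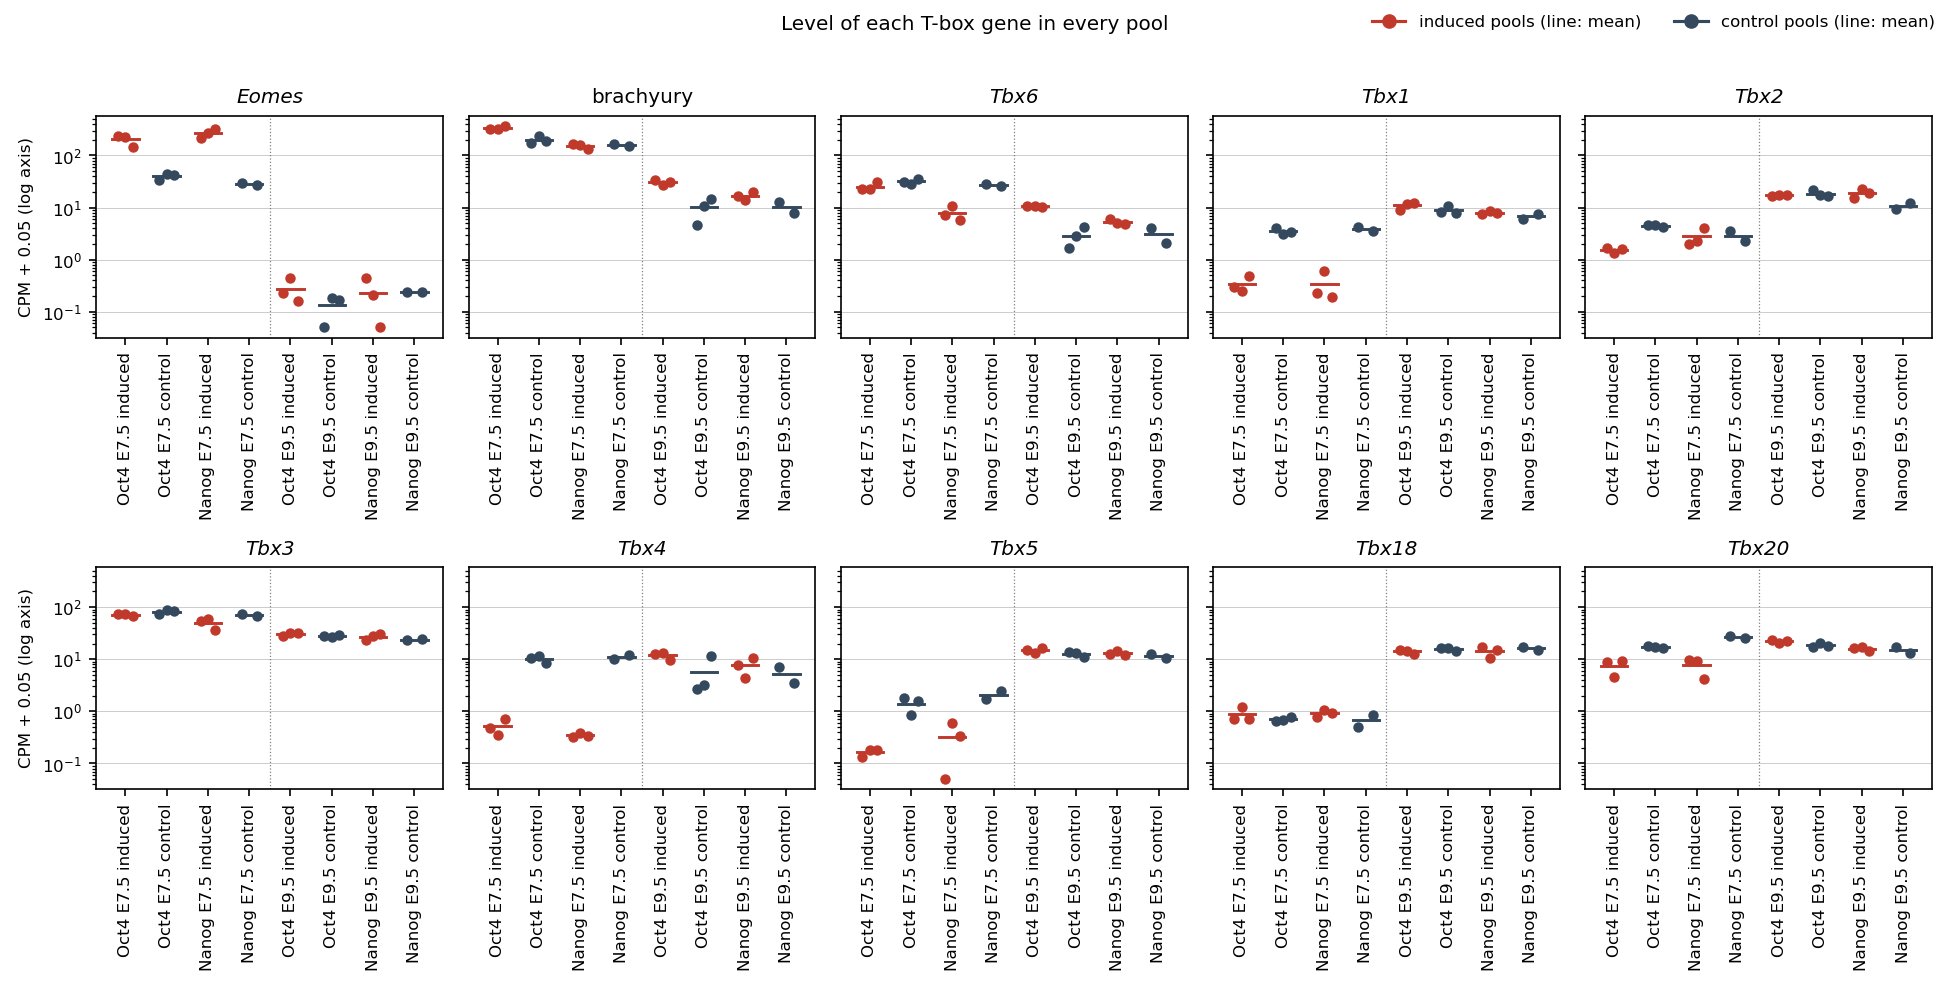
Level of each T-box gene in all 22 pools (CPM plus the small offset given on the axis, log scale; each point 1 pool, line the group mean), with induced pools left of their controls. Eomes stood at 148 to 316 CPM in the E7.5 induced pools of both lines and at 27.3 to 44.5 CPM in the E7.5 controls, and Tbx4 at 0.275 to 0.655 CPM in the same induced pools and 8.36 to 12.1 CPM in the controls.

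At E7.5, induction of either factor raised Eomes strongly and lowered Tbx4, Tbx1 and Tbx20. Of the genes lowered by both, only Tbx1 was called higher at E9.5 than at E7.5 in the controls. Tbx18, which had the steepest increase between the control stages, did not pass with Oct4. With Oct4, 2 of 10 tested members rose and 5 fell, where 2.25% of all 16071 tested genes rose and 3.91% fell. With Nanog, 1 of 9 tested members rose and 4 fell, where 2.96% of 14118 tested genes rose and 4.82% fell. Tbx18 was below the filter on low counts in the Nanog comparison. The induced and control pools did not overlap for 7 members with Oct4, against 22.9% of all genes, and for 7 members with Nanog, against 42.9%.

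Eomes (chr9:118387330-118395250, plus strand, NCBIM37), needed for the streak mesoderm, the definitive endoderm and the trophoblast, had 238, 223 and 148 CPM in the Oct4 induced pools and 33.5, 44.5 and 42.3 CPM in their controls. Every induced pool lay above every control pool, and the log2 fold change was 2.36 ± 0.18 (adjusted p = 0.000297). In the Nanog induced pools it had 216, 270 and 316 CPM, against 29.3 and 27.3 CPM in the controls (3.22 ± 0.18, adjusted p = 0.000264). The Eomes call held with each library left out in turn in both lines. Since Eomes is also expressed in trophoblast, the markers of that tissue are given beside it: their summed level was 141 to 234 CPM in the Oct4 induced pools and 229 to 258 CPM in their controls, and 347 to 449 CPM in the Nanog induced pools and 166 to 251 CPM in their controls. Cdx2, which is in the posterior list too, was at 63 ± 10.3 CPM in the Oct4 induced pools and 128 ± 20.5 CPM in their controls, and without it the other 7 markers summed to 89.1 to 169 CPM and 86.3 to 153 CPM, ranges that overlapped. In the Nanog line those 7 summed to 308 to 397 CPM in induced pools and 68.1 to 153 CPM in controls. Of 6 tested markers Esrrb rose (1.25 ± 0.17) and Cdx2 fell (-0.99 ± 0.15) with Oct4. With Nanog Esrrb (1.42 ± 0.18) and Elf5 (1.47 ± 0.19) rose and Cdx2 fell (-1.28 ± 0.19). Elf5, a trophoblast stem cell factor, stood at 73, 65.6 and 89.5 CPM in the Nanog induced pools and 23.5 and 30.6 CPM in the controls. The part of trophoblast in the Eomes difference was not tested. Epiblast markers moved with Eomes as well: 5 of 5 tested rose with Oct4, at a sum of 2010 to 2730 CPM in induced and 975 to 1140 CPM in control pools, and 4 of 5 rose with Nanog, at 2110 to 2670 CPM and 981 to 1000 CPM. That list holds Pou5f1, which the Oct4 transgene itself supplies. Markers of decidua and adult blood summed to 236 to 336 CPM in the Oct4 induced pools and 134 to 295 CPM in their controls, with 2 of 9 higher, Prf1 of cytotoxic lymphocytes (1.36 ± 0.25, adjusted p = 0.0125) and S100a9 of neutrophils (1.45 ± 0.35, adjusted p = 0.0436). With Nanog they summed to 106 to 504 CPM in induced pools and 365 CPM in both controls. The part of epiblast and of maternal cells in the differences was not tested.

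Brachyury (chr17:8627288-8635361, plus strand), the streak and notochord factor that gives the family its name, had 326, 317 and 372 CPM in the Oct4 E7.5 induced pools and 176, 242 and 188 CPM in the controls. The groups did not overlap, and the fold change of 0.77 ± 0.13 passed (adjusted p = 0.00959). It lost the call without control 1 (adjusted p = 0.0571), control 3 (0.0577) or induced 3 (0.05). In the Nanog line brachyury had 168, 161 and 131 CPM in induced pools and 165 and 155 CPM in controls, overlapping ranges with a fold change of -0.08 ± 0.11 (adjusted p = 0.712). Tbx6 (chr7:133924997-133929074, plus strand), which commits cells to presomitic rather than neural fate, showed the other arrangement. It had 7.25, 10.6 and 5.67 CPM in the Nanog induced pools, all below the 28.6 and 25.7 CPM of the controls (-1.77 ± 0.22, adjusted p = 0.00246), a call kept with each library left out. In the Oct4 line it had 22.6, 22.3 and 30.3 CPM in induced pools and 31.6, 28.4 and 35.4 CPM in controls, ranges that overlapped (-0.32 ± 0.15, adjusted p = 0.325).

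Tbx4 (chr11:85699924-85729599, plus strand), a gene of the allantois and the hindlimb bud, had the largest negative fold change of the family in both lines. It had 0.437, 0.303 and 0.655 CPM in the Oct4 induced pools, 40 counts in all, and 10.5, 11.7 and 8.36 CPM in their controls (-4.45 ± 0.27, adjusted p = 0.000181). In the Nanog induced pools it had 0.275, 0.336 and 0.291 CPM, 13 counts in all, and 9.93 and 12.1 CPM in the controls (-5.14 ± 0.33, adjusted p = 7.28e-05). Both calls held with each library left out. Tbx2 (chr11:85646053-85655450, plus strand), a repressor of the heart, limb and eye, lies 44.5 kb from Tbx4 on the same strand. It had 1.61, 1.28 and 1.53 CPM in the Oct4 induced pools, below the 4.52, 4.62 and 4.1 CPM of the controls (-1.55 ± 0.18, adjusted p = 0.00176). In the Nanog line the Tbx2 values of 1.93, 2.27 and 4.07 CPM in induced pools overlapped the 3.46 and 2.2 CPM of the controls (-0.09 ± 0.44, adjusted p = 0.929).

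Tbx1 (chr16:18581806-18588113, minus strand), the pharyngeal and outflow tract factor, had 0.246, 0.202 and 0.437 CPM in the Oct4 induced pools and 4.07, 3.02 and 3.29 CPM in their controls (-3.56 ± 0.31, adjusted p = 0.000438). It had 0.183, 0.546 and 0.145 CPM in the Nanog induced pools and 4.21 and 3.58 CPM in the controls (-3.46 ± 0.52, adjusted p = 0.00627). The Nanog call was lost without control 2 (adjusted p = 0.0768) or control 3 (0.0635), which leaves 1 control pool that is then assumed to vary like the others. Tbx20 (chr9:24527648-24578746, minus strand), a cardiac factor, had 8.79, 4.55 and 9.22 CPM in the Oct4 induced pools and 18.1, 17.5 and 16.5 CPM in the controls (-1.18 ± 0.24, adjusted p = 0.022). With Nanog Tbx20 had 9.72, 9.12 and 4.07 CPM in induced pools and 27.7 and 25.6 CPM in controls (-1.78 ± 0.30, adjusted p = 0.0158). The pools separated fully in both lines, but the Tbx20 calls were lost without Oct4 control 1, 2 or 3 (adjusted p = 0.0983, 0.0672 and 0.0679) and without Nanog control 2 or 3 (0.122 and 0.11).

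Tbx5 (chr5:120284672-120335227, plus strand) was near the detection limit after induction. It had 0.0819, 0.135 and 0.131 CPM in the Oct4 induced pools, 10 counts in all, and 1.75, 0.798 and 1.5 CPM in the controls (-3.50 ± 0.44, adjusted p = 0.00234). With Nanog it had 0, 0.546 and 0.291 CPM in induced pools and 1.65 and 2.43 CPM in controls, which did not overlap and did not pass (-2.65 ± 0.74, adjusted p = 0.063). That comparison passed with no filter on low counts (adjusted p = 0.00768), in 1 model over all 22 libraries (0.000921) and without induced 1 (0.0438) or induced 3 (0.0484). Its neighbour Tbx3 (chr5:120120678-120134733, plus strand), a repressor that is also active in pluripotent cells and the heart's conduction system, lies 149.9 kb away with no protein-coding gene between them. Tbx3 had 74.2, 73.2 and 68.8 CPM in the Oct4 induced pools and 74.2, 86.7 and 83.3 CPM in the controls (-0.15 ± 0.086, adjusted p = 0.439). With Nanog it had 54, 58.6 and 35.9 CPM in induced pools and 74.9 and 67.3 CPM in controls (-0.53 ± 0.18, adjusted p = 0.122; 0.00665 in 1 model over all 22 libraries). Tbx3 shares 115 exonic bases with a gene on the opposite strand, and the strand of the reads is not stated, so its level is uncertain. Tbx18 (chr9:87597635-87626095, minus strand) had 0.655, 1.18 and 0.655 CPM in the Oct4 induced pools and 0.597, 0.627 and 0.736 CPM in the controls (0.36 ± 0.31, adjusted p = 0.654).

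**Figure D3:**
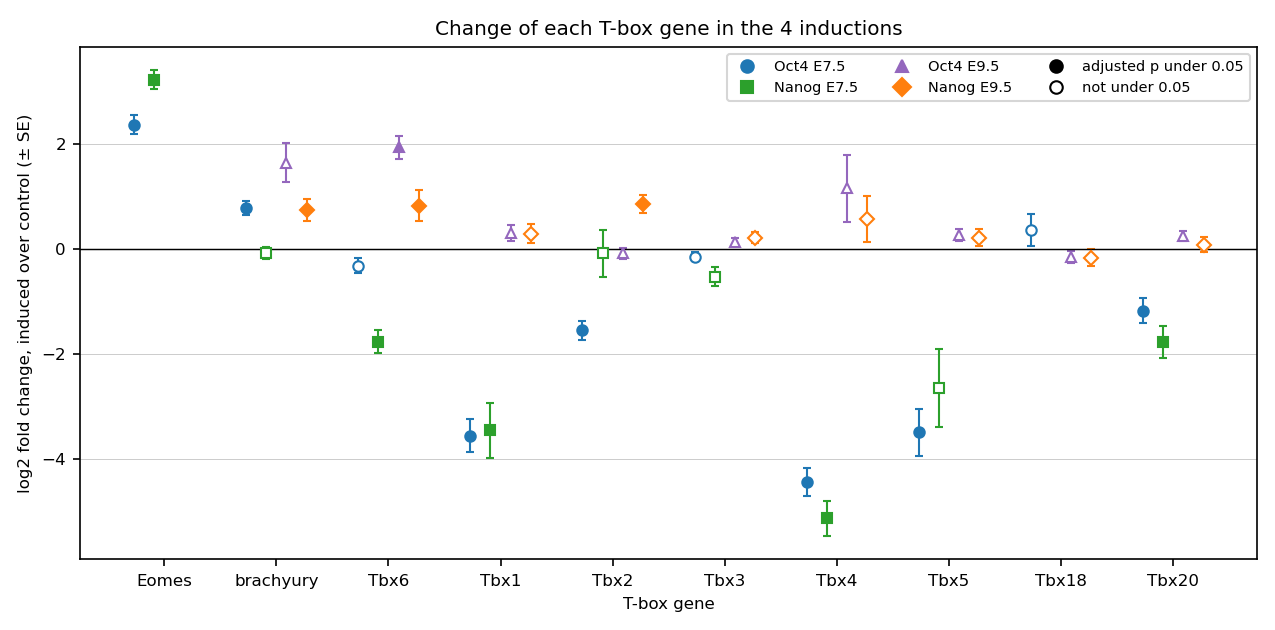
Log2 fold change of each T-box gene, induced over control, in the 4 inductions, with standard errors as bars and filled points for genes that passed at an adjusted p under 0.05. Eomes lies at 2.36 and 3.22 and Tbx4 at -4.45 and -5.14 at E7.5, and at E9.5 the passing members all lie above 0.

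Lists of genes that act around these factors were chosen with earlier results of these data known, so they are not independent support. At E7.5 most called genes of the streak list rose and most of the posterior list fell. Of 13 streak and endoderm genes, 10 rose with Oct4 and 8 with Nanog (median log2 fold change 2.20 and 1.74, against 0.0158 and 0.00344 over all tested genes). They included Nodal, the ligand upstream of Eomes, at 15.3, 14.9 and 9.78 CPM in the Oct4 induced pools and 2.02, 2.28 and 1.87 CPM in the controls (2.72 ± 0.20, adjusted p = 0.000244). Wnt3, which is needed for the streak to form (2.54 ± 0.20 with Oct4 and 2.64 ± 0.22 with Nanog), and Mesp1, a target of Eomes in cardiac mesoderm (2.47 ± 0.21 and 2.36 ± 0.14), were in the same list. Of the posterior and presomitic genes, where Tbx6 acts, 9 of 13 fell and 1 rose with Oct4, and 5 of 12 fell and 1 rose with Nanog, with medians of -1.08 and -2.04. Meox1, a somite factor, was at 0.522 ± 0.0848 CPM in the Oct4 induced pools and 12.9 ± 3.87 CPM in the controls (-4.60 ± 0.29), and at 0.806 ± 0.215 CPM in the Nanog induced pools and 18.4 ± 0.729 CPM in the controls (-4.45 ± 0.26). Msgn1, a presomitic partner of Tbx6, had 2.16, 1.45 and 2.84 CPM in the Oct4 induced pools and 19.9, 13.7 and 27.2 CPM in the controls (-3.23, adjusted p = 0.000762). The exception with Oct4 was Dll3, a Notch ligand of the presomitic mesoderm (1.06 ± 0.09), and with Nanog it was Cyp26a1, which degrades retinoic acid (0.85, adjusted p = 0.0287).

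In the lists that surround the later members, most of the genes called at E7.5 were lower, except in the epicardial list with Nanog, where 1 was lower and 1 higher. Of 17 heart genes 8 fell and 1 rose with Oct4, and 7 fell with Nanog (medians -1.06 and -0.32). Isl1, a second heart field factor (-1.47 ± 0.16), fell and Myl7, an atrial myosin light chain (0.89 ± 0.11), rose with Oct4, while Mef2c (-2.12 ± 0.21) and Nkx2-5 (-4.06 ± 0.61), a partner of Tbx5, fell with Nanog. Of the allantois and limb genes, where Tbx4 acts, 4 of 11 fell and 1 rose with Oct4 and 1 of 8 fell with Nanog (medians -0.41 and -0.51). Pitx1, which lies upstream of Tbx4 in the hindlimb, had 3.3, 5.59 and 5.68 CPM in the Oct4 induced pools and 13, 17.1 and 14 CPM in the controls (-1.58 ± 0.22), and 2.29, 2.81 and 1.89 CPM in the Nanog induced pools and 11.9 and 10.4 CPM in the controls (-2.24 ± 0.25). Of 12 pharyngeal genes 4 fell with Oct4 and 5 with Nanog, among them Pax9 in both (-2.29 ± 0.26 and -2.74 ± 0.59), with list medians of -0.45 and -1.32. Of the epicardial genes 3 of 5 fell with Oct4, led by the retinoic acid enzyme Aldh1a2 (-4.16 ± 0.24), and with Nanog Aldh1a2 fell (-3.10 ± 0.44) and Wt1 rose (1.66 ± 0.36) among 4; the list medians were -1.51 and -1.40. Visceral endoderm and yolk sac markers moved beside the Nanog changes, with 5 of 8 lower and a sum of 1250 to 1910 CPM in induced pools and 3030 to 3490 CPM in controls. With Oct4 1 of 8 was lower, at 3430 to 4200 CPM and 3860 to 4970 CPM. Of 6 parietal endoderm markers 1 rose and 2 fell with Oct4, among them Plat (-1.88 ± 0.14, adjusted p = 0.000251) and Lama1 (-0.67 ± 0.16, adjusted p = 0.0465), at a sum of 734 to 772 CPM in induced pools and 772 to 957 CPM in controls. With Nanog Plat fell (-1.5 ± 0.28, adjusted p = 0.014), at 684 to 841 CPM and 782 to 1030 CPM. The part of these tissues in the T-box changes was not tested.

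**Figure D4:**
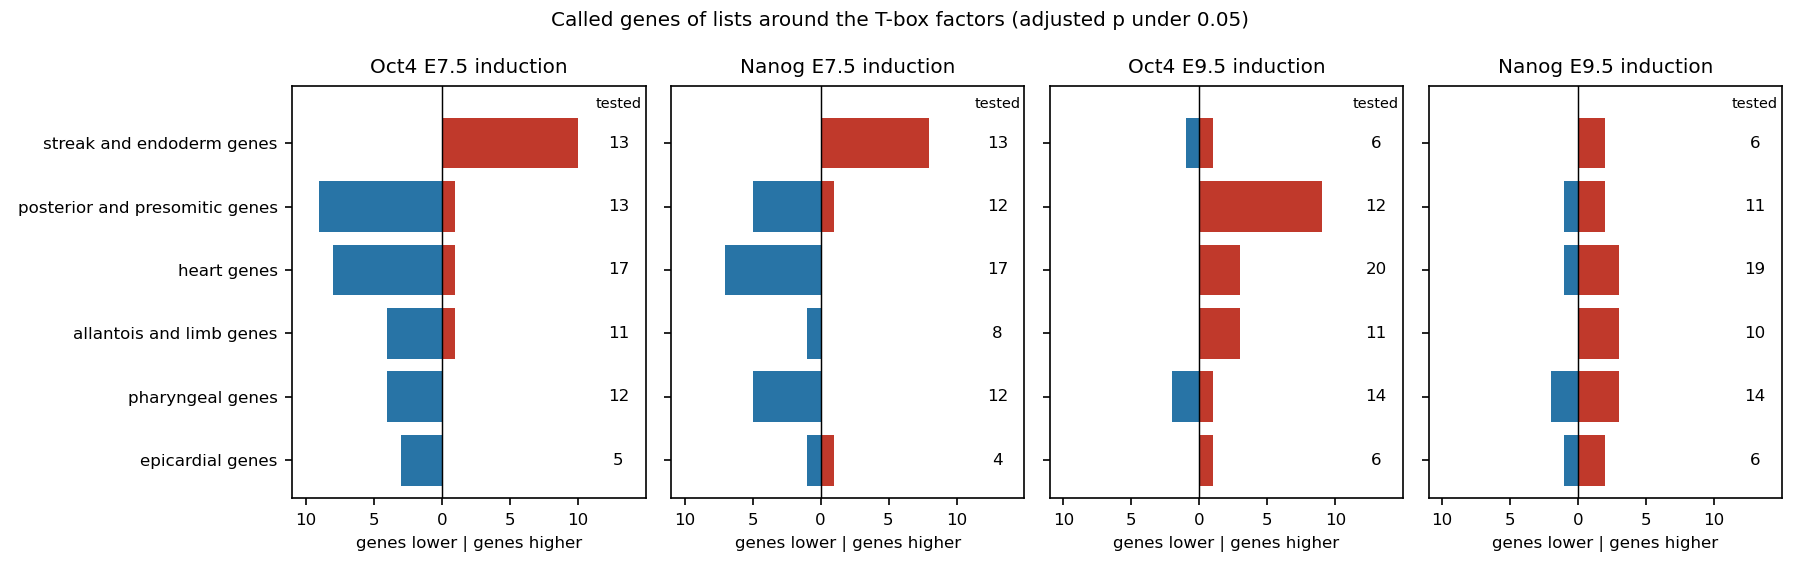
Number of genes called higher and lower in each gene list in the 4 inductions. Bars to the right of 0 count higher genes, bars to the left lower ones, and the number tested stands at the right edge. With Oct4, posterior and presomitic genes were called higher at E9.5 (9 of 12) and lower at E7.5 (9 of 13), and at E7.5 10 of 13 streak and endoderm genes were called higher.

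At E9.5 the members called were higher: Tbx6 with Oct4, and Tbx2, brachyury and Tbx6 with Nanog. Brachyury and Tbx6 are still expressed in the tail bud at this stage. With Oct4, 1 of 9 tested members rose, where 4.69% of 13957 tested genes did. With Nanog, 3 of 9 rose, where 15.4% of 13305 tested genes did. Eomes was below the filter in both. The pools did not overlap for 2 members with Oct4 and 4 with Nanog, against 28.7% and 55.6% of all genes, so neither count is above its background.

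Tbx6 had 10.7, 10.7 and 10.2 CPM in the Oct4 E9.5 induced pools and 1.66, 2.8 and 4.12 CPM in the controls. All induced pools lay above all controls, with a fold change of 1.93 ± 0.22 (adjusted p = 1.74e-05) that was called with each library left out. Brachyury had 33.7, 26.8 and 30.4 CPM in the induced pools and 4.67, 10.8 and 14.7 CPM in the controls, which did not overlap, yet it did not pass (1.64 ± 0.37, adjusted p = 0.0776). It passed in DESeq2 (adjusted p = 0.0128), in 1 model over all 22 libraries (0.00452) and without control 1, the lowest control, at a smaller fold change of 1.34 (1.12e-05). Control 1 was also the lowest of the 3 controls for Tbx6, and for Tbx4, which had 12.8, 13.1 and 9.47 CPM in induced pools and 2.6, 3.2 and 11.4 CPM in controls (1.15 ± 0.64, adjusted p = 0.39). Without control 3, the control that overlapped the induced pools, the Tbx4 difference was 2.01 (adjusted p = 3.68e-07). The other 6 tested members had fold changes between -0.16 and 0.30 and did not pass.

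With Nanog at E9.5, Tbx2 had 15.1, 23 and 19.2 CPM in induced pools and 9.5 and 12.1 CPM in controls (0.86 ± 0.17, adjusted p = 0.00182), called with each library left out. Brachyury had 16.5, 13.7 and 20.3 CPM in induced pools and 12.6 and 7.89 CPM in controls (0.74 ± 0.21, adjusted p = 0.0206), and Tbx6 had 6, 5.06 and 4.71 CPM and 4.01 and 2.03 CPM (0.82 ± 0.29, adjusted p = 0.0422). The pools separated narrowly for both. The brachyury call was lost without control 3 (adjusted p = 0.127), induced 1 (0.0708) or induced 3 (0.07) and in 1 model over all 22 libraries (0.162), and the Tbx6 call in 4 of the 5 fits that leave out a library, in DESeq2 (0.161) and in 1 model over all 22 libraries (0.102). The other 6 tested members had fold changes between -0.17 and 0.56 and did not pass.

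Other genes of the posterior list rose with Tbx6 in the Oct4 line at E9.5, where 9 of 12 were higher (median 0.61 against 0.00215 over all tested genes). Among all genes tested 4.61% fell with Oct4 and 13% with Nanog, beside the shares that rose given above, so list counts such as 3 of 19 are near the background. Msgn1 had 7.27, 7.03 and 5.94 CPM in induced pools and 0.519, 0.868 and 1.58 CPM in controls (2.83 ± 0.29, adjusted p = 3.54e-06). Cdx1, a posterior Hox regulator, had 18.3, 25 and 22.7 CPM in induced pools and 3.32, 4.27 and 3.15 CPM in controls (2.58 ± 0.16, adjusted p = 7.61e-09). With Nanog 2 of 11 were higher and 1 lower (median 0.12), and the called genes were Tcf15 (0.75 ± 0.22), Wnt3a (0.58 ± 0.21) and Rspo3 (-0.39 ± 0.14). Of the allantois and limb genes 3 of 11 rose with Oct4, among them the posterior Hox gene Hoxa13 (1.82 ± 0.41), and 3 of 10 with Nanog, where Pitx1 had 17.4, 14.7 and 18.1 CPM in induced pools and 8.33 and 6.29 CPM in controls (1.22 ± 0.17, adjusted p = 0.000115). Of 20 heart genes 3 rose with Oct4, led by Gata6 (0.56 ± 0.09), and of 19 with Nanog 3 rose and 1 fell, which was Nppb (-1.30 ± 0.37). The medians of the heart list were 0.10 and 0.06, and those of the allantois and limb list 0.21 and 0.10. Of 6 streak and endoderm genes Lhx1 rose (0.89 ± 0.23) and Foxa2 fell (-0.85 ± 0.18) with Oct4, and Snai1 (0.52 ± 0.15) and Fgf8 (0.61 ± 0.21) rose with Nanog. Of 14 pharyngeal genes 1 rose and 2 fell with Oct4, and 3 rose and 2 fell with Nanog. Of 6 epicardial genes Aldh1a2 rose with Oct4 (0.51 ± 0.07), and 2 rose and 1 fell with Nanog.

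Other cell types in the E9.5 pools were followed with the same markers. In the Oct4 line, markers of decidua and adult blood summed to 111 to 136 CPM in induced pools and 21.7 to 50.4 CPM in controls. The adult globin gene Hbb-b1 made up most of that sum, at 116 ± 12.4 CPM in induced pools and 25.7 ± 9.29 CPM in controls. Of 2 tested, Hbb-b1 was called higher (2.17 ± 0.29, adjusted p = 0.0235) and Dcn was not called (-0.39 ± 0.19, adjusted p = 0.229). Trophoblast markers summed to 26.7 to 27.4 CPM in induced pools and 5.09 to 14.5 CPM in controls, with Tpbpa at 0 in all of these pools. Cdx2 made up most of that sum, at 22.9 ± 0.984 CPM in induced pools and 7.48 ± 3.83 CPM in controls, and the other 7 markers summed to 3.52 to 4.79 CPM and 1.97 to 4.24 CPM. Of 7 tested visceral endoderm and yolk sac markers Apoa1 was higher (1.37 ± 0.35, adjusted p = 0.017), at a sum of 113 to 127 CPM in induced pools and 107 to 117 CPM in controls. Of 6 parietal endoderm markers Lama1 was lower (-0.32 ± 0.05), at 619 to 633 CPM and 664 to 675 CPM. In the Nanog line, decidua and blood markers summed to 52.3 to 60.7 CPM in induced pools and 23.2 to 26.6 CPM in controls. Hbb-b1 again made up most of that sum, at 51.6 ± 5.07 and 17.4 ± 0.269 CPM. It was higher (1.59 ± 0.10, adjusted p = 2.4e-08), and Dcn was not called (0.35 ± 0.25, adjusted p = 0.309). Trophoblast markers summed to 10.9 to 14.3 CPM in induced pools and 10.4 to 13.5 CPM in controls. Parietal endoderm markers summed to 653 to 700 CPM in the Nanog induced pools and 557 to 582 CPM in controls, with 3 of 6 higher, Col4a1 (0.36 ± 0.07), Snai1 (0.52 ± 0.15) and Lama1 (0.21 ± 0.07). Visceral endoderm markers summed to 88.1 to 97.4 CPM and 97.9 to 120 CPM, with 1 of 4 tested, Lrp2, lower (-0.22 ± 0.08). The part of these cells in the T-box changes at E9.5 was not tested.

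Responses at the 2 stages differed for most of the later members when the difference itself was tested. Taking the response at E9.5 minus that at E7.5, 6 of 10 members were higher with Oct4, where 4.84% of 16359 tested genes were. They were Tbx4 (5.57 ± 0.69), Tbx1 (3.88 ± 0.35), Tbx5 (3.73 ± 0.43), Tbx6 (2.24 ± 0.29), Tbx2 (1.46 ± 0.20) and Tbx20 (1.43 ± 0.29), all with adjusted p of 0.00745 or less. With Nanog 5 of 10 were higher, where 8.02% of 14897 tested genes were, namely Tbx4 (5.69 ± 0.59), Tbx1 (3.68 ± 0.48), Tbx5 (2.79 ± 0.61), Tbx6 (2.58 ± 0.40) and Tbx20 (1.84 ± 0.36), all with adjusted p of 0.0106 or less. Brachyury did not pass in either line (0.86 ± 0.37, adjusted p = 0.242, and 0.80 ± 0.27, adjusted p = 0.0856), but with Nanog it passed in DESeq2 (0.0168) and without Nanog E9.5 control 2 (0.0129). Eomes did not pass in either line (-1.28 ± 1.6, adjusted p = 0.755, with Oct4 and -3.25 ± 1.28, adjusted p = 0.122, with Nanog). With Nanog it passed in DESeq2 (0.0207) and without Nanog E7.5 induced 1 (0.0309) or induced 4 (0.0339). Since Eomes had at most 3 counts in each E9.5 library, its stage difference is not resolved. The start and route of doxycycline differed between the stages by design, so stage and schedule cannot be told apart, nor can the difference in short gene models described above.

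The 2 lines were also compared directly. At E7.5, in Nanog minus Oct4, 0 of 10 members passed in edgeR, where 0.204% of 16680 tested genes did. At an unadjusted p under 0.05 there were 4, Tbx6 (-1.43 ± 0.28, adjusted p = 0.0719), brachyury (-0.84 ± 0.19, adjusted p = 0.138), Tbx2 (1.47 ± 0.44, adjusted p = 0.26) and Eomes (0.88 ± 0.29, adjusted p = 0.318). DESeq2 called 2, Tbx6 (adjusted p = 0.00048) and brachyury (0.00532), and limma-voom called 0. The Tbx6 difference also passed with no filter on low counts (0.0284) and in 1 model over all 22 libraries (0.0237). At E9.5 Tbx2 was the member whose response differed (0.95 ± 0.20, adjusted p = 0.00441), where 7.92% of 14604 tested genes were higher, and that call was lost in 1 model over all 22 libraries (0.0979). The fall of Tbx6 with Nanog and the rise of brachyury with Oct4 at E7.5 are therefore not shown to be particular to 1 factor by the main test.

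The 7 T-box genes outside the set were mostly near the detection limit, and at most 2 of them passed the filter in an induction. Mga, which joins a T-box to a Myc-like domain, was at 179 ± 6.83 CPM in the Nanog E9.5 induced pools and 220 ± 15.5 CPM in the controls (-0.27 ± 0.06, adjusted p = 0.00541).

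Genes whose means over the 8 groups followed those of a member most closely were sought among 12483 genes, as a description. Kcnj3 and Atf1 followed Eomes (Pearson r 0.999 and 0.997), Uvrag and Renbp brachyury (0.994 and 0.993), and Naaa and Lamb1 Tbx6 (0.997 and 0.993). Itga2b and Smarcd3 followed Tbx4 (0.987 and 0.986), and Plag1 Tbx18 (0.999). The least closely matched member was Tbx20, with Flnc at 0.966. The 8 points share libraries and the contrast of stages.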

How the data were processed

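RNA-seq of 22 embryo pools was deposited as a table of RSEM expected counts (estimated counts, not normalized) per gene and library. The submitters' processing notes name RSEM 1.17, Picard, cutadapt and limma, and genome build NCBIM37. Libraries were read on a GAII or HiSeq machine, per the labels' protocols; which machine read each library, and strand, are not given in the sources used here. Symbols and coordinates came from GENCODE vM1, which held 37309 of the 37680 IDs.

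Counts were rounded to whole numbers and tested in R 4.3.3 with edgeR 4.0.16 (TMM, filterByExpr, robust quasi-likelihood F test, two-sided, Benjamini-Hochberg adjusted p under 0.05 over all tested genes), each induction on its own groups, differences between inductions as interactions over 4 groups. Levels are CPM with TMM factors over all 22 libraries, as mean ± SD. Fold changes are log2 induced over control. Their standard error was taken back from the test, as the absolute fold change over the square root of F. It is therefore approximate, and few counts stand behind some of the largest falls. Alternatives were RLE size factors, no filter, DESeq2 1.42.0, limma-voom (limma 3.58.1), 1 model over all 22 libraries, the same without mitochondrial and short (under 80 nt) gene models, each library left out, and a replicate block. The test was first tried on simulated counts that gave every gene the same relative spread between pools. The real pools need not spread in that way, so that trial cannot show how many calls here are false. Replicate pairs differed beyond sampling noise (chi-square per degree of freedom 1.6 to 67.1 over 20 pairs). The labels do not say that pools came from separate litters, so p-values measure the spread between pools. Floors of 3 counts cover counting error only.

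The members and 7 gene lists (85 genes) were chosen with earlier results of these data known. List genes named were mostly taken from the 3 with the lowest p per list and induction, not all of which are named; other list genes were chosen after their values were seen. Shared reads of near-identical genes are divided by RSEM and uncertain. The result of 1 list gene is not reported here.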

Additional observations from a re-analysis of the deposited data

Results flagged for a closer look

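Responses of a T-box gene that differed between stages or lines, when the difference itself was tested in edgeR, are listed here as log2 differences. Between E9.5 and E7.5 in the Oct4 line, the response of Tbx4 differed by 5.57, that of Tbx1 by 3.88, that of Tbx5 by 3.73, that of Tbx6 by 2.24, that of Tbx2 by 1.46 and that of Tbx20 by 1.43. In the Nanog line the stage difference was 5.69 for Tbx4, 3.68 for Tbx1, 2.79 for Tbx5, 2.58 for Tbx6 and 1.84 for Tbx20. The Tbx5 difference in the Nanog line did not pass without Nanog E7.5 control 3 (adjusted p = 0.0976) or without Nanog E9.5 control 3 (0.0515). Between the lines at E9.5, Nanog minus Oct4, the response of Tbx2 differed by 0.95.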

How the results depend on the processing

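Under RLE size factors, and without mitochondrial and short gene models, every count of called members stayed as reported. In 1 model over all 22 libraries 1638 genes were called with Oct4 E7.5, 2737 with Nanog E7.5, 312 with Oct4 E9.5, 1958 with Nanog E9.5, 177 in Nanog minus Oct4 at E7.5 and 229 at E9.5, against 991, 1099, 1297, 3772, 34 and 1970 in the fits on each comparison's own groups. Members called there were 2 higher with Oct4 E9.5, 1 higher with Nanog E9.5, 1 lower in Nanog minus Oct4 at E7.5 and 0 higher at E9.5. DESeq2 called 599 genes with Oct4 E9.5, 2348 with Nanog E9.5 and 241 in Nanog minus Oct4 at E7.5. It called 2 members higher with Oct4 E9.5 and 2 lower in Nanog minus Oct4 at E7.5. In the Nanog response, E9.5 minus E7.5, it called 7 higher, brachyury (adjusted p = 0.0168) and Tbx3 (0.0404) among them. The 1 member it called lower there was Eomes (-3.25, adjusted p = 0.0207), which is near absence at E9.5. With no filter 1721 genes were called with Nanog E7.5 and 56 in Nanog minus Oct4 at E7.5, with 1 member lower there and 1 lower at E9.5, and limma-voom called 19 genes in Nanog minus Oct4 at E7.5. The share of calls that were higher in that comparison was 32.4% in edgeR, 51.5% in DESeq2, 15.8% in limma-voom and 48% over all 22 libraries. DESeq2 moved the median of all genes by 0.12 in the Nanog response between stages and by 0.102 in the Oct4 line controls. The cause was not tested.

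With 1 library left out, genes called ranged from 438 to 1101 (Oct4 E7.5), 161 to 1383 (Nanog E7.5), 625 to 1290 (Oct4 E9.5), 1482 to 3487 (Nanog E9.5), 16 to 102 and 837 to 2178 (Nanog minus Oct4 at E7.5 and E9.5) and 807 to 2376 (Nanog response between stages). Members called ranged from 1 to 2 higher with Oct4 E7.5, 2 to 5 lower with Nanog E7.5, 1 to 2 higher with Oct4 E9.5, 1 to 3 higher with Nanog E9.5, and 0 to 1 lower in both Nanog minus Oct4 comparisons and in the Nanog response between stages. The sign changed only for members that were not called. Their ranges were -0.44 to 0.27 (Tbx2) and -0.15 to 0.01 (brachyury) with Nanog E7.5, -0.15 to 0.02 (Tbx2) with Oct4 E9.5, and -0.1 to 0.28 (Tbx20) and -0.34 to 0.01 (Tbx18) with Nanog E9.5. In Nanog minus Oct4 they were -0.91 to 0.44 (Tbx1), -0.59 to 1.32 (Tbx5) and -0.24 to 0.59 (Tbx18) at E7.5, and -0.19 to 0.15 (Tbx1), -0.01 to 0.16 (Tbx3), -1.46 to 0.01 (Tbx4), -0.17 to 0.09 (Tbx5), -0.18 to 0.16 (Tbx18) and -0.36 to 0.03 (Tbx20) at E9.5. Tbx1 was 0.05 in the E9.5 difference in limma-voom.

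Whether replicate numbers pair pools could not be settled with 2 or 3 pools per group. Same-numbered deviations correlated at 0.167, 0.298 and -0.0194 in Oct4 E7.5, where 2 of 3 numbers matched best. In Nanog E9.5 they correlated at -0.0567 and 0.0397, where 1 of 2 did. A replicate block called 1287 genes in Oct4 E7.5 with the same member counts, and 3359 in Nanog E9.5, where Tbx6 had an adjusted p of 0.0658. No paired analysis was possible for Nanog E7.5 or Oct4 E9.5 because their groups share only 1 number. Depth limits Eomes at E9.5, and Tbx1, Tbx4 and Tbx5 after induction at E7.5, where few counts stand behind each value.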
